A study of Mus musculus with 60 samples.

Results

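Macrophage and inflammatory genes were followed through the chromatin of mouse dorsal root ganglia (DRG), the clusters of sensory neuron cell bodies beside the spinal cord. The 37 genes were taken as a given list, and each was located by its symbol among 21887 protein-coding genes of the RefSeq annotation. For each gene the deposited peaks were counted in a window of the gene body and 10 kb on either side. Grouped by role, they are the transcription factors Spi1, Irf5 and Irf8, the growth factor Csf1 with its receptor Csf1r, and the complement genes C1qa, C1qb and C1qc. Receptors and adaptors are Tyrobp, Fcer1g, Trem2, Fcgr1 and Fcgr3, the general myeloid genes are Aif1, Ptprc and Adgre1, and the lysosomal genes are Cd68, Laptm5, Ctss, Lyz2 and Gpnmb. Antigen presentation is covered by Cd74, H2-Aa, H2-Ab1 and H2-Eb1, pattern recognition by Cd14, Tlr2 and Tlr4, and scavenging by Mrc1, Cd163 and Lyve1. The remaining members are the cytokines and effectors Il1b, Tnf, Arg1 and Spp1 and the NADPH oxidase genes Cybb and Ncf1.

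C57BL/6 mice aged 6 to 8 weeks had sciatic nerve axotomy (SNA), sham sciatic surgery (Sham), a cut of the spinal dorsal columns (dorsal column axotomy, DCA) or a laminectomy (Lam), the opening of the spine that DCA also requires. The L4-L6 ganglia were taken 24 hours later. SNA cuts the peripheral branch of sensory neurons and DCA the central branch, and the design sets SNA against Sham and DCA against Lam. Histone marks were mapped by ChIP-seq (chromatin immunoprecipitation and sequencing) in 24 libraries with 24 inputs, each from 10 pooled mice, and open chromatin by ATAC-seq (transposase insertion into accessible DNA) in 12 libraries of 1 mouse each. H3K9ac and H3K27ac are acetylations of active promoters and enhancers, and H3K27me3 is the Polycomb mark of silenced genes. Each of the 16 peak lists pools the replicates of 1 assay and surgery, so no value below has a replicate error and none was tested. Intervals cover counting error only.

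Macrophages live among the cell bodies and satellite glia of the DRG, and they multiply and are joined by blood monocytes after nerve injury. Their identity rests on PU.1, the product of Spi1, which binds GGAA-centred sites at enhancers and promoters of most myeloid genes, together with IRF, AP-1 and C/EBP factors. Injured sensory neurons make CSF1, the ligand of the receptor CSF1R on which macrophages and microglia depend. Macrophages are a minority in whole ganglia, and in such bulk tissue fewer cells of a type and less signal per cell cannot be told apart.

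The lists differ in length, and this bears on every count. Series of 4 values below follow the order Sham, SNA, Lam, DCA. The H3K9ac lists held 50332, 74652, 50667 and 89647 peaks, the H3K27ac lists 43803, 75824, 67311 and 46489, and the ATAC lists 153556, 174605, 158160 and 164365. The H3K27me3 lists held 122953, 141635, 154055 and 90011 peaks, of which 1613, 218, 916 and 43 had an authors' q of at most 0.05. The H3K27ac lists of Sham and DCA stood apart: of their 5000 strongest peaks, 22.1% and 35.7% lay over open chromatin of that surgery by ATAC, against 58.5% in Lam and 88.3% in SNA. Sequencing depth is not given by peak lists and is unknown here.

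Promoter sequences show what lies under the peaks described below. RefSeq (GRCm38.p6) gave start sites for 26 of the 37 members. Not in that table are Csf1r, C1qa, Tyrobp, Adgre1, Spi1, Cd14, Cd74, H2-Ab1, Tlr4, Lyve1 and Arg1. Each sequence below is the 250 bases before the start site, 5′ to 3′ on the gene's strand, with matches to the searched motifs in capitals. The first set holds promoters that overlapped an ATAC peak in all 4 surgeries. Csf1 also had both acetylation marks in all 4 lists and shows no match.
Csf1 (chr3:107760470-107760719, minus strand): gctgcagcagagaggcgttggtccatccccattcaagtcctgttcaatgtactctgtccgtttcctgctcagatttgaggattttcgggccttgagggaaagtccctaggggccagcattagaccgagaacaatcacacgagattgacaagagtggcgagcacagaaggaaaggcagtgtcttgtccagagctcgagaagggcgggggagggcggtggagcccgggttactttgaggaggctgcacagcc
Tlr2 (chr3:83841609-83841858, minus strand): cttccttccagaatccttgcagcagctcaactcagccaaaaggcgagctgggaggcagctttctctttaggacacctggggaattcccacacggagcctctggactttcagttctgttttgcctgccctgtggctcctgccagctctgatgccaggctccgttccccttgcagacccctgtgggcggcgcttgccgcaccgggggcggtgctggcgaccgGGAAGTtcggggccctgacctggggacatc
Irf8 (chr8:120736108-120736357, plus strand): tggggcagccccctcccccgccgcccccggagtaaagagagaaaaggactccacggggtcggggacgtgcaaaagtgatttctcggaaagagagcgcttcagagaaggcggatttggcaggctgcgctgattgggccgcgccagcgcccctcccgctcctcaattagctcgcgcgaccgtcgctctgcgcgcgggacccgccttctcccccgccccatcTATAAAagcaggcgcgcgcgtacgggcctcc

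Tlr2 encodes a receptor for bacterial lipoproteins, and its capitals mark the short PU.1 form GGAAGT. Irf8 encodes the lineage factor of monocytes and macrophages, and its capitals mark a TATA box, TATAAA. The second set holds promoters that overlapped an ATAC peak in some surgeries. H2-Aa, the class II alpha chain, had a peak over its start in the SNA and DCA lists and in neither control. C1qc, a chain of complement C1q, had its peak in the SNA list, C1qb in the Sham list, Trem2 in the SNA and Lam lists, and Spp1, which encodes osteopontin, in the Lam list.
H2-Aa (chr17:34287824-34288073, minus strand): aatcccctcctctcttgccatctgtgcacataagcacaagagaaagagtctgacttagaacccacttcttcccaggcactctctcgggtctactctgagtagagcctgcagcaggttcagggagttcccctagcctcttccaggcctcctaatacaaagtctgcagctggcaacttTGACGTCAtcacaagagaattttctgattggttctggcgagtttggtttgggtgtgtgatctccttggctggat
C1qc (chr4:136892915-136893164, minus strand): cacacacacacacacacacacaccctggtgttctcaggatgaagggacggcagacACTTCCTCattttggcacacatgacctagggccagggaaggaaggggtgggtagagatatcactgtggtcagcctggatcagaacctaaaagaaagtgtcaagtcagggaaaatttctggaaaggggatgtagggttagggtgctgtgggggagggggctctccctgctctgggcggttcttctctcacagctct
C1qb (chr4:136886201-136886450, minus strand): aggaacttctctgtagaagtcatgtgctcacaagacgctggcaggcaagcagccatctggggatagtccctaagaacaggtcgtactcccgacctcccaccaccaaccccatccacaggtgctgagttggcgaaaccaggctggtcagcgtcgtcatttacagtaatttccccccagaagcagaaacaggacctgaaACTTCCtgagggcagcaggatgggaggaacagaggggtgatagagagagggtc
Trem2 (chr17:48346151-48346400, plus strand): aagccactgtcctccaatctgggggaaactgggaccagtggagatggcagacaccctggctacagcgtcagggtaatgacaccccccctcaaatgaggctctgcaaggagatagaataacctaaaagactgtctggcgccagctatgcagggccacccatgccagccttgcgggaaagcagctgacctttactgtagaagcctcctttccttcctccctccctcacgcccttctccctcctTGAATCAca
Spp1 (chr5:104434861-104435110, plus strand): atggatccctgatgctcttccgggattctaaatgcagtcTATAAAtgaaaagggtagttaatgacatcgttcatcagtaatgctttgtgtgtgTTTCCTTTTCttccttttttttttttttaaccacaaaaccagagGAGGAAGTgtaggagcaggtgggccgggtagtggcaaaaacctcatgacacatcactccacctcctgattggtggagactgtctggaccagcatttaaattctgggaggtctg

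In H2-Aa the capitals mark a CRE, TGACGTCA, which lies inside both ATAC peaks. The C1qc capitals are the complement of the long PU.1 form GAGGAAGT, which holds GGAAGT within it, and they lie inside the SNA peak. C1qb shows the complement of GGAAGT. Trem2, a lipid receptor of macrophages and microglia, shows TGAATCA next to the start. It matches the searched AP-1 form TGANTCA, which allows any base at its centre (N). Spp1 shows, in order, TATAAA, the complement of the IRF form (GAAA, any pair of bases, GAAA), and GAGGAAGT.

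All motifs were searched on both strands in the 300 bases from 250 before to 50 after each start. GGAAGT was found in 14 of 26 members (53.8%) and in 27.7% of 17492 genes with such a window. GAGGAAGT was found in 3 members, C1qc, Ctss and Spp1 (11.5%, against 3.64% of genes). The IRF form was found in 5 members, Aif1, Ctss, Cybb, Ncf1 and Spp1 (19.2%, against 3.94%). TATAAA was found in 7 members (26.9%, against 14.8%), TGANTCA in 4 (15.4%, against 8.12%) and the C/EBP form TTGCNNAA in 4 (15.4%, against 11.7%). TGACGTCA was found in H2-Aa alone among members (3.85%, against 2.54% of genes). A match is a run of letters and not a measured binding site.

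Most members had no acetylation peak at either end of the gene, where active promoters carry one. With a gene end taken as 1 kb on either side of the first or last base, H3K9ac peaks stood at the ends of 8, 8, 6 and 14 members (21.6%, 21.6%, 16.2% and 37.8%). Over all genes the shares were 49.1%, 50.6%, 49.7% and 59.3%. H3K27ac stood at the ends of 6, 7, 9 and 4 members (16.2%, 18.9%, 24.3% and 10.8%), against 40.3%, 50.9%, 50.9% and 42.7% of genes. In all 8 acetylation lists the 95% Wilson interval of the members' share lay below the share of all genes. Open chromatin differed less: ATAC peaks stood at the ends of 22, 25, 22 and 25 members (59.5%, 67.6%, 59.5% and 67.6%), against 69.4%, 71.2%, 69.5% and 70.7% of genes. At the start sites themselves, ATAC peaks covered 5, 10, 9 and 8 of the 26 members with a promoter entry, against 63.1%, 65.5%, 63.5% and 64.7% of genes.

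**Figure D1:**
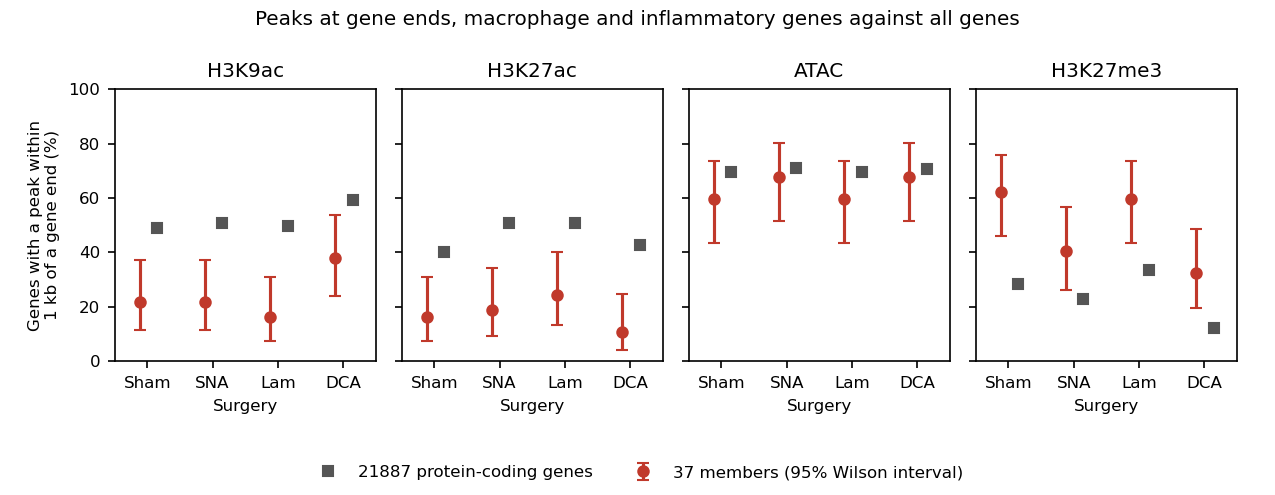
Share of genes with a peak within 1 kb of a gene end (vertical axis, percent) in the 4 lists of each assay (horizontal axis). Circles are the 37 members with 95% Wilson intervals, and squares are all 21887 protein-coding genes. Members lie below all genes for both acetylation marks (from 10.8% to 37.8%) and above them for H3K27me3 (from 32.4% to 62.2%).

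Few members had acetylation at their ends in every list. H3K9ac was at an end of Spi1, Csf1, Gpnmb, Cd14 and Tlr4 in all 4 lists, and H3K27ac at an end of Csf1, Cd68 and Cd14. These 5 and 3 members stand against 41.9% and 32.1% of all genes. In no list did H3K9ac reach an end of 22 members, among them the 3 C1q genes, Tyrobp, Trem2, Ptprc, Adgre1, Ctss, Lyz2 and Cd163, against 38.7% of genes. H3K27ac reached an end of 26 members in no list, against 43.0%. For 12 members the whole window held no H3K9ac peak in any list (C1qa, C1qb, C1qc, Trem2, Ptprc, Adgre1, Ctss, Lyz2, Cd163, Il1b, Arg1 and Cybb). The window likewise held no H3K27ac peak for 12 members, which differ from those by having Laptm5, H2-Aa and H2-Ab1 in place of Trem2, Ptprc and Ctss. Windows with no such peak were about as common over all genes, at 28.5% for H3K9ac and 29.3% for H3K27ac. ATAC peaks were at an end in all 4 lists for 15 members: Spi1, Irf5, Irf8, Csf1, Csf1r, Tyrobp, Cd68, Gpnmb, H2-Ab1, H2-Eb1, Cd14, Tlr2, Tlr4, Cd163 and Tnf, against 61.9% of genes. They were at an end in no list for 6, Fcgr3, Ptprc, Cd74, Mrc1, Arg1 and Cybb, against 21.8%. Cybb, the X-linked catalytic subunit of the phagocyte oxidase, held no peak in any of the 16 lists, which was also true of 413 of 966 genes on chromosome X (42.8%) and of 5.005% of genes elsewhere.

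H3K27me3 ran the other way. Its peaks were at the ends of 23, 15, 22 and 12 members (62.2%, 40.5%, 59.5% and 32.4%), against 28.6%, 23.0%, 33.4% and 12.3% of all genes. C1qb, Fcgr1, H2-Aa and Tlr2 had one in all 4 lists, against 5.30% of genes. Frequent H3K27me3 at gene ends was not particular to the members. It was also found for 11, 11, 12 and 6 of 15 sensory neuron genes. Of the 22 members with an ATAC peak at an end in Sham, 16 also had H3K27me3 there (72.7%, against 30.0% of genes with ATAC), and in SNA it was 13 of 25 (52.0%, against 21.7%). In Sham the 16 included Irf5, Irf8, Csf1, C1qb, Tyrobp, Fcgr1, H2-Ab1, H2-Eb1, Cd14, Tlr2, Tlr4, Il1b and Tnf. These peaks were weak: the members' 421 H3K27me3 peaks had a median authors' fold over background of 1.14, against 3.24 for H3K9ac, 4.16 for H3K27ac and 1.97 for ATAC. Only 2 H3K27me3 peaks in members' windows, 1 in Sham and 1 in Lam, had a q of at most 0.05, and with that limit no member had H3K27me3 at an end in any list.

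**Figure D2:**
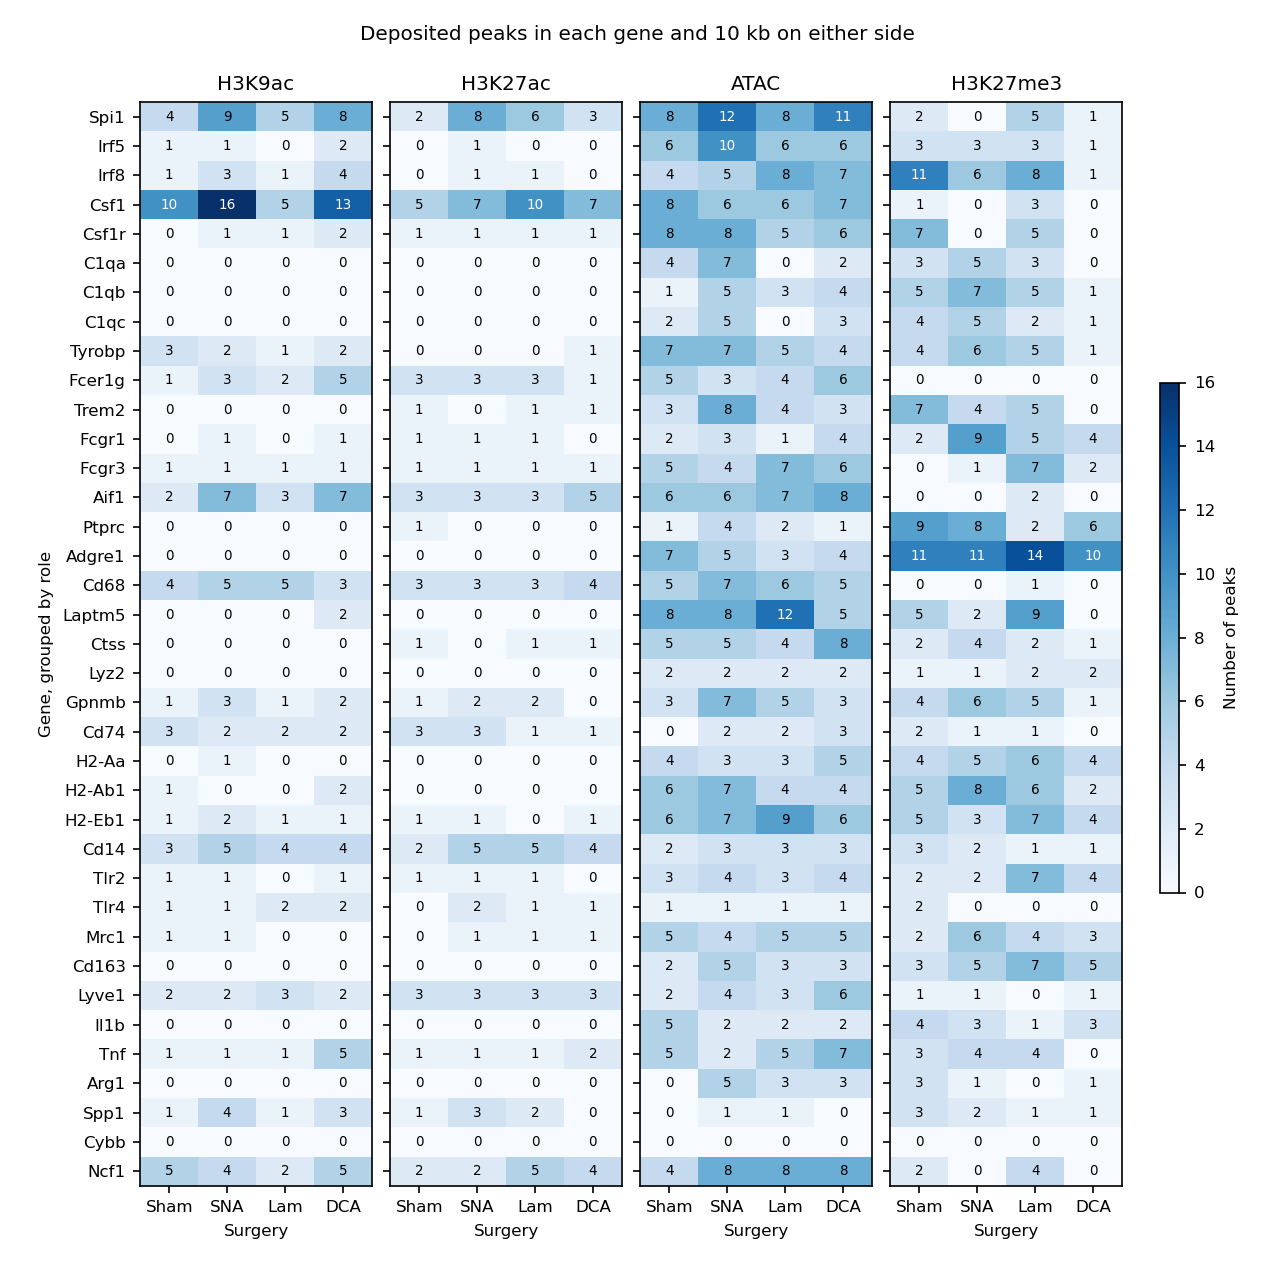
Number of deposited peaks in each member's window (rows, grouped by role) for the 4 assays and 4 surgeries (columns), with darker blue for more peaks. Csf1 has the highest H3K9ac count, 16 in SNA, Cybb holds none in any column, and C1qa, C1qb and C1qc have ATAC and H3K27me3 peaks with 0 acetylation peaks.

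After SNA, the members with more H3K9ac peaks were led by Csf1, Spi1 and Aif1, with Csf1 going from 10 to 16, Spi1 from 4 to 9 and Aif1 from 2 to 7. A member is called higher or lower here when it held at least 2 more or 2 fewer peaks than in the control list. For H3K9ac, 8 members were higher after SNA (21.6%) and 0 lower, against a background of 23.6% and 2.68% of all genes. Beside the 3 named, the higher members were Spp1 (from 1 to 4), Cd14 (from 3 to 5), Irf8 (from 1 to 3), Gpnmb (from 1 to 3) and Fcer1g (from 1 to 3), while Cd74, H2-Ab1 and Ncf1 held 1 fewer each. After DCA, 11 were higher than in Lam (29.7%) and 1 lower, against 33.2% and 2.44%. Csf1 went from 5 to 13, Aif1 from 3 to 7 and Tnf from 1 to 5, while Cd68 went from 5 to 3 and Lyve1 from 3 to 2. Lam against Sham had 0 higher and 3 lower, against 11.7% and 11.7%, with Csf1 lowest at 5 in Lam and 10 in Sham, followed by Ncf1 (2 and 5) and Tyrobp (1 and 3). The shares are near or below the background in both injuries.

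Distinct H3K9ac peaks in the windows numbered 48, 75, 41 and 79. The log2 ratio of SNA to Sham was 0.64 (exact 95% interval 0.10 to 1.20) beside 0.57 for the whole lists, and that of DCA to Lam was 0.95 (0.38 to 1.53) beside 0.82. When each pair of lists was limited to its shorter length by peak strength, both ratios turned, to -0.16 for SNA (43 against 48 peaks) and -0.072 for DCA (39 against 41). At equal list sizes 2 members were higher after SNA, Aif1 and Gpnmb, and 4 lower, Tyrobp, Cd74, Lyve1 and Ncf1, against 8.72% and 11.1% of genes. Spi1 then had 5 H3K9ac peaks in SNA and 4 in Sham, and Csf1 10 in each. After DCA at equal sizes 1 member, Csf1 (5 in Lam and 8 in DCA), was higher and 2, Cd68 and Tlr4, were lower, against 2413 of 21887 genes higher and 10.3% lower.

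For H3K27ac the leading member was Spi1, with 2 peaks in Sham and 8 in SNA, followed by Cd14 (2 and 5), Csf1 (5 and 7), Spp1 (1 and 3) and Tlr4 (0 and 2). These 5 members (13.5%) were higher after SNA and 0 lower, against a background of 29.2% and 4.14%, and Ctss, Ptprc and Trem2 held 1 peak in Sham and 0 in SNA. After DCA, when the list was the shorter of its pair, Spi1 went from 6 to 3, Csf1 from 10 to 7, Fcer1g from 3 to 1, Gpnmb from 2 to 0 and Spp1 from 2 to 0. These 5 were lower (13.5%) and 1, Aif1 with 3 and 5, was higher, against 22.0% and 3.33%, with Cd68 and H2-Eb1 holding 1 more each. Lam against Sham had 4 higher and 1 lower, against 24.8% and 2.82%, with Csf1 at 10 and 5, Spi1 at 6 and 2, Cd14 at 5 and 2 and Cd74 lowest at 1 and 3. Distinct peaks numbered 37, 53, 53 and 42, so the log2 ratios were 0.52 (-0.11 to 1.17) after SNA and -0.34 (-0.96 to 0.28) after DCA, beside 0.79 and -0.53 for the lists. Both intervals include 0. At equal list sizes both signs turned, to -0.04 after SNA (36 against 37 peaks) and 0.22 after DCA (42 against 36). Then 4 members were higher after SNA, Spi1, Cd14, Tlr4 and Spp1, and 2 lower, Lyve1 and Ncf1, against 12.6% and 10.9% of genes. After DCA 3 were higher, Aif1, Cd68 and Ncf1, and 1 lower, Fcer1g, against 9.76% and 9.02%, while Spi1 had 3 peaks in each list and Csf1 6 in Lam and 7 in DCA.

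ATAC peaks gave the longest list of members higher after SNA. Trem2 went from 3 peaks to 8, Arg1 from 0 to 5, and C1qb, Gpnmb, Irf5, Ncf1 and Spi1 held 4 more each. In all, 14 members were higher (37.8%) and 5 lower (13.5%), against a background of 31.2% and 11.8%. The 14 include C1qa, C1qb and C1qc, whose windows overlap and share peaks. The lower members were Il1b and Tnf, which went from 5 to 2 each, and Adgre1, Csf1 and Fcer1g with 2 fewer each. After DCA, 9 were higher (24.3%) and 3 lower (8.11%), against 20.3% and 20.6%, led by Ctss (4 in Lam and 8 in DCA), with C1qc (0 and 3), Fcgr1 (1 and 4), Lyve1 (3 and 6) and Spi1 (8 and 11). The lower members were Laptm5 (12 and 5), H2-Eb1 (9 and 6) and Gpnmb (5 and 3). Lam against Sham had 9 higher and 8 lower, against 26.9% and 15.7%, with Irf8, Laptm5 and Ncf1 highest at 4 more each, C1qa and Adgre1 lowest at 4 fewer each and Csf1r at 3 fewer.

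Distinct ATAC peaks numbered 141, 178, 153 and 159. The log2 ratio was 0.34 (0.01 to 0.67) after SNA, beside 0.19 for the lists, and 0.06 after DCA, beside 0.06. Limited to equal list sizes, the SNA ratio was 0.17 (-0.16 to 0.51), on 159 against 141 peaks. Its interval also included 0 in the gene body alone (-0.16 to 0.77) and with Lam in place of Sham (-0.10 to 0.54). It lay above 0 with 25 kb on either side (0.03 to 0.55) and at q of at most 0.05 (0.14 to 0.85). With an authors' -log10 q of at least 5, 15, 24, 19 and 18 members had an ATAC peak, against 65.3%, 72.5%, 65.2% and 69.4% of genes. The log2 ratio of such peaks was 0.89 after SNA, -0.32 after DCA and 0.51 for Lam to Sham, with Sham the lowest of the 4 lists. Gpnmb had 3 such peaks after SNA and 0 in Sham, and Tyrobp 3 and 1. At equal list sizes 12 members were higher after SNA, which left out C1qa and Ncf1 from the 14, and 6 lower, against 22.0% and 17.8% of genes.

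**Figure D3:**
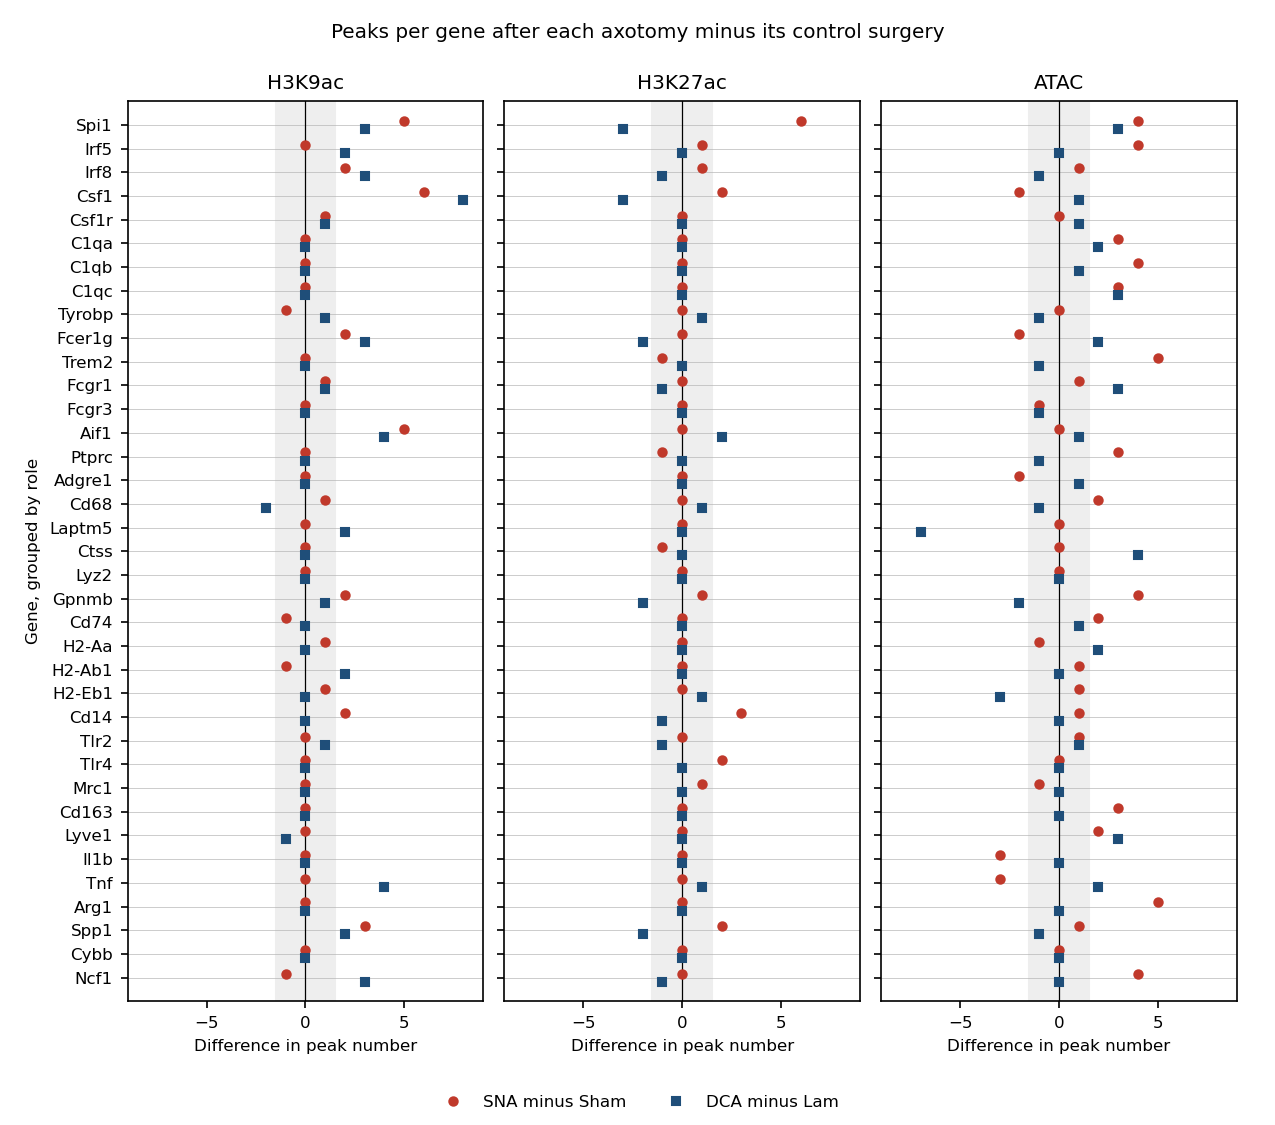
Difference in peak number for each member (rows), SNA minus Sham as circles and DCA minus Lam as squares, for H3K9ac, H3K27ac and ATAC; the grey band holds differences under 2. H3K9ac points of Csf1, Spi1 and Aif1 lie right of the band for both injuries, and H3K27ac points of Spi1 (6 and -3) lie on opposite sides.

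Of the transcription factors, Spi1 (chr2:91082374-91115759) encodes PU.1. Its H3K9ac counts were 4, 9, 5 and 8, with the highest control below the lowest injury list, though at equal list sizes SNA and Sham had 5 and 4 and DCA and Lam 5 each. Its H3K27ac counts were 2, 8, 6 and 3, its ATAC counts 8, 12, 8 and 11 and its H3K27me3 counts 2, 0, 5 and 1. An H3K9ac region over the lower-coordinate end, chr2:91082155-91084070, was present in SNA (fold 3.83) and DCA (fold 2.68) and in neither control. A further H3K9ac peak beyond that end reached the 93.7th percentile of the DCA list (chr2:91077966-91079270, fold 6.23). At the opposite end an H3K9ac peak was present in all 4 lists at folds of 4.36, 4.86, 3.89 and 3.60, and an ATAC peak stood over the same place in all 4.

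Spi1 had 3 ATAC regions shared by SNA and DCA alone, at chr2:91084222-91084768, chr2:91101196-91101730 and chr2:91118846-91119491, the last at an end of its neighbour Mybpc3. Irf8 (chr8:120736358-120756694) had H3K9ac counts of 1, 3, 1 and 4, and its promoter shown above was open in every list at folds of 2.25, 2.63, 2.24 and 2.86, highest after the injuries. Its H3K9ac region inside the gene, chr8:120751469-120752389, was in all 4 lists. Irf5 (chr6:29526130-29541869), a factor of inflammatory macrophages, was open at its start in all 4 lists, at the 90.4th percentile in SNA, 38.3rd in Sham, 67.5th in Lam and 74.7th in DCA. H3K9ac covered the Irf5 start in DCA alone, with a fold of 3.68.

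Csf1 (chr3:107741048-107760469) had the most acetylation of all members. Its H3K9ac counts were 10, 16, 5 and 13, both injuries above both controls, and its H3K27ac counts 5, 7, 10 and 7. At equal list sizes SNA and Sham had 10 H3K9ac peaks each, and DCA and Lam 8 and 5. The start region chr3:107757347-107760889 had H3K9ac in all 4 lists, as 1 peak of fold 5.70 in DCA. ATAC over the promoter shown above was level, with folds of 3.19, 3.22, 3.11 and 3.28 and percentiles from 94.5 to 95.2. Inside the gene, chr3:107744273-107744907 and chr3:107750756-107751438 had H3K9ac in SNA and DCA and in neither control. Csf1r, which encodes the receptor for its product, had H3K9ac counts of 0, 1, 1 and 2, 1 H3K27ac peak in each list and ATAC counts of 8, 8, 5 and 6. Its H3K27me3 counts were 7 in Sham and 5 in Lam against 0 in both injuries.

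The complement genes C1qa, C1qb and C1qc sit side by side on chromosome 4, their windows overlap, and they encode the chains of C1q, which starts the classical pathway and tags synapses and debris. None had an acetylation peak in any list. Distinct ATAC peaks over the 3 windows numbered 4, 10, 3 and 4, with the most in SNA, the longest list. At equal list sizes SNA and Sham had 5 and 4 in the C1qa window, 3 and 1 in that of C1qb and 4 and 2 in that of C1qc. Within the SNA list a peak lay at the C1qc start (chr4:136893002-136893232, fold 1.68) and a pair in C1qa (chr4:136896499-136896845, fold 1.86, and chr4:136897571-136898356, fold 1.83). In DCA the peaks lay elsewhere, at an end of C1qb (chr4:136880043-136880833, fold 1.97) and inside C1qc (chr4:136890146-136890485, fold 1.87). All ATAC peaks of the cluster were of middling or low strength, the highest at the 55.0th percentile of its list.

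**Figure D4:**
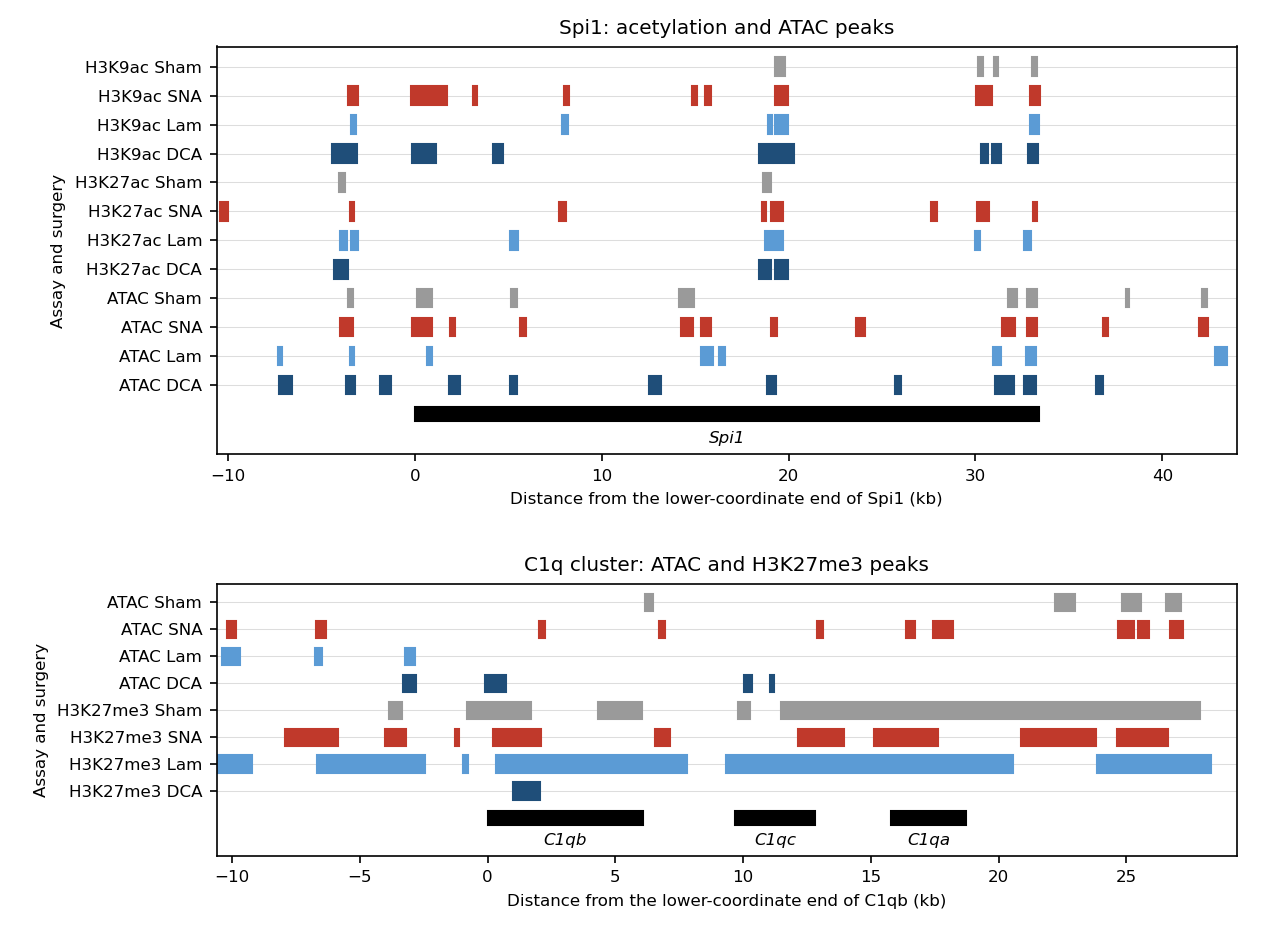
Peaks around Spi1 (H3K9ac, H3K27ac and ATAC) and the C1q cluster (ATAC and H3K27me3), drawn to scale by distance in kb from the lower-coordinate end of Spi1 or C1qb, with 1 row for each assay and surgery and black bars for the genes. H3K9ac at the left end of Spi1 is in the SNA and DCA rows alone, and the C1q cluster has 10 ATAC peaks in SNA against 4 in Sham, 3 in Lam and 4 in DCA.

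Among the Fc and Trem2 receptors and their signalling adaptors, Trem2 (chr17:48346401-48352276) had the largest difference in ATAC after SNA. Its ATAC counts were 3, 8, 4 and 3, with SNA above the other lists. The peak over its promoter was chr17:48345979-48346754 in SNA (fold 2.12) and chr17:48346336-48346756 in Lam (fold 1.92), and a region past the gene, chr17:48355724-48356455, was open in SNA and DCA alone. Trem2 had no H3K9ac peak, and its H3K27ac peak, upstream of the start, was in the Sham, Lam and DCA lists and absent from SNA. Its H3K27me3 counts were 7, 4, 5 and 0.

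Fcgr1, the high-affinity IgG receptor, had a site beyond its far end, chr3:96277110-96278560, with ATAC in all 4 lists (folds 3.48, 3.68, 2.62 and 2.96) and H3K9ac in SNA and DCA alone. Fcgr3, a low-affinity IgG receptor, had a narrow ATAC peak inside the gene, chr1:171064465-171064735, that stood near the top of every list with folds of 5.82, 6.51, 5.43 and 5.21. Tyrobp, the DAP12 adaptor of Trem2, had ATAC counts of 7, 7, 5 and 4, and Fcer1g, the Fc receptor gamma chain, 5, 3, 4 and 6. Most acetylation in the Fcer1g window stood at ends of Tomm40l and Apoa2, and that in the Tyrobp window near Nfkbid.

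The general myeloid genes differed from each other. Aif1, which encodes IBA1, had H3K9ac counts of 2, 7, 3 and 7, the longer injury lists above the controls. At equal list sizes SNA and Sham had 4 and 2, and DCA and Lam 3 each. The strongest peaks in the Aif1 window stood at ends of Prrc2a and Lst1. Ptprc, which encodes CD45, had no H3K9ac peak and ATAC counts of 1, 4, 2 and 1, with the site inside the gene, chr1:138069423-138069829, open in SNA and DCA alone. Adgre1, which encodes F4/80, had no acetylation peak, ATAC counts of 7, 5, 3 and 4, and the most H3K27me3 peaks of any member in Lam, with 11, 11, 14 and 10. Its window was also the longest of any member, at 144.9 kb against a median of 30.8 kb.

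Of the lysosomal genes, Gpnmb had the largest difference in ATAC after SNA. Gpnmb (chr6:49036518-49058182) marks lipid-laden macrophages, and its ATAC counts were 3, 7, 5 and 3. Just after its start the ATAC peak was stronger in SNA (chr6:49037074-49037953, fold 2.79) than in Sham (fold 1.98) and DCA (fold 2.01), and at the far end chr6:49057156-49057605 was open in SNA and DCA alone. H3K9ac peaks near an end of Gpnmb were found in every list, though over the start site in Sham and SNA alone, and chr6:49039769-49040234 had H3K9ac in SNA and DCA alone. Ctss, the protease cathepsin S, had ATAC counts of 5, 5, 4 and 8, and Laptm5, a lysosomal membrane protein, 8, 8, 12 and 5. Lyz2, the macrophage lysozyme, had 2 ATAC peaks in every list and no acetylation. Cd68, a lysosomal glycoprotein, had 3 to 5 acetylation peaks in each list, the strongest at ends of Eif4a1, Senp3 and Mpdu1.

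Class II presentation genes had few acetylation peaks. H2-Aa (chr17:34282744-34287823) had no H3K27ac peak and 1 H3K9ac peak, in SNA. Its promoter was open in SNA (chr17:34287616-34288393, fold 1.95, 30.7th percentile) and DCA (chr17:34287597-34288130, fold 2.13, 66.6th percentile), with no peak there in Sham or Lam. H2-Ab1, the class II beta chain, was open at its ends in all 4 lists, and H2-Eb1 held an intragenic site with H3K9ac and ATAC in all 4 lists, chr17:34309282-34310313. H3K27ac at that site was in the Sham, SNA and DCA lists, at folds of 1.87, 6.12 and 5.0. Cd74, the invariant chain, had ATAC counts of 0, 2, 2 and 3, and its acetylation lay beyond its end towards Tcof1.

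Cd14, Tlr2 and Tlr4, which sense bacterial products, had acetylation and open chromatin at their ends in more lists than most members. Cd14 had H3K9ac counts of 3, 5, 4 and 4 and H3K27ac counts of 2, 5, 5 and 4. At its own ends H3K9ac was strongest after SNA, with a fold of 7.21 and the 98.6th percentile against 4.75 and the 91.2nd in Sham, while other strong peaks of the window were at an end of Tmco6. The Tlr2 promoter shown above (gene at chr3:83836272-83841824) was open in all 4 lists, with folds of 2.56, 2.57, 3.46 and 2.73, highest in Lam. Tlr2 H3K9ac folds were 4.50 in Sham, 2.85 in SNA and 4.60 in DCA, with no peak in Lam, so neither mark followed injury. Tlr4 (chr4:66827551-66846581), the receptor for lipopolysaccharide, had H3K27ac counts of 0, 2, 1 and 1, and its ATAC peak had folds of 1.63, 2.57, 2.52 and 1.86.

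Scavenger receptors of resident macrophages had little acetylation of their own. Mrc1, which encodes CD206, had ATAC counts of 5, 4, 5 and 5 and 1 downstream site, chr2:14341402-14342714, open in all 4 lists at folds of 3.08, 3.45, 3.02 and 2.99. Cd163, a haemoglobin scavenger receptor, had no acetylation peak and ATAC counts of 2, 5, 3 and 3. Lyve1, a hyaluronan receptor of perivascular macrophages and lymphatic endothelium, had ATAC counts of 2, 4, 3 and 6, both injuries above both controls. Its gene-end region chr7:110862627-110863608 was open in SNA and DCA alone, whereas the strongest peaks of its window lay at or near an end of Rnf141.

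The cytokines showed no common direction. Il1b had no acetylation peak, and its ATAC counts were 5, 2, 2 and 2. Upstream of the Il1b start, chr2:129372119-129372445 was open in SNA (fold 2.08) and DCA (fold 2.27) and in neither control. Tnf had ATAC counts of 5, 2, 5 and 7 and H3K9ac counts of 1, 1, 1 and 5, with most strong peaks at ends of Ltb. Arg1, an enzyme of repair-type macrophages, had ATAC counts of 0, 5, 3 and 3, with Sham below the other lists. The strongest Arg1 site in SNA was chr10:24924281-24924534 (fold 2.46, 81.2nd percentile).

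Spp1 (chr5:104435111-104441053) had H3K9ac counts of 1, 4, 1 and 3 and H3K27ac counts of 1, 3, 2 and 0. Its upstream site chr5:104432580-104433342 had H3K9ac in all 4 lists, with folds of 4.02, 5.60, 3.12 and 4.01. H3K9ac over the promoter shown above was in SNA (chr5:104435060-104435316, fold 3.18) and DCA (chr5:104434524-104434919, fold 2.65) alone. A site inside the gene, chr5:104436200-104436634, was also in SNA and DCA alone. Both sites were weak, from the 5.68th to the 23.7th percentile of their lists. Ncf1, the organiser subunit of the oxidase, had ATAC counts of 4, 8, 8 and 8, so Sham was the low list, and H3K9ac counts of 5, 4, 2 and 5.

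Across both injuries, 6 members had more H3K9ac peaks each time (16.2%, against 16.8% of genes): Spi1, Irf8, Csf1, Fcer1g, Aif1 and Spp1. None was called in opposite directions, against 2.28%. At equal list sizes the higher members for H3K9ac were Aif1 and Gpnmb after SNA and Csf1 after DCA. No member was then higher after both. For H3K27ac 0 members were called the same way (against 2.58%) and 3 opposite ways, Spi1, Csf1 and Spp1 (8.11%, against 14.4%). For ATAC 4 were called the same way (10.8%, against 11.6%), Spi1, C1qa, C1qc and Lyve1, and 3 opposite ways, against 12.4%. For H3K27me3 7 were called the same way, all lower (18.9%, against 13.3%): Spi1, Irf8, Csf1r, Trem2, Laptm5, H2-Eb1 and Ncf1. A further 6 were called opposite ways for H3K27me3 (16.2%, against 10.95%). With H3K27me3 lists at equal size, Irf8 and Ncf1 were no longer called lower after DCA, and Mrc1 was higher after both. C1qa, C1qb and Gpnmb were then no longer called opposite ways, while Ptprc and Adgre1 were. The shares of genes at equal size were not determined. By position, 9 of 106 H3K9ac regions of the members were in SNA and DCA alone (8.49%, against 8.52% of all regions) and 0 in Sham and Lam alone. For ATAC it was 17 of 320 regions (5.31%, against 4.26%) and 6 in Sham and Lam alone (1.88%, against 2.62%). The H3K9ac share of such regions was that of the genome.

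H3K27me3 peaks around the members were fewer in DCA than in Lam. Distinct peaks numbered 117, 111, 135 and 58, and the log2 ratio of DCA to Lam was -1.22 (-1.69 to -0.76) beside -0.78 for the lists. At equal list sizes the ratio was -0.39 after DCA (58 against 76 peaks) and -0.26 after SNA (98 against 117), and in the gene body alone it was -0.52 after SNA. The difference between the injuries was not tested. After SNA, 9 members were higher and 9 lower, against 18.4% and 17.5% of genes. Fcgr1 (2 and 9), Mrc1 (2 and 6) and H2-Ab1 (5 and 8) led the higher and Csf1r (7 and 0), Irf8 (11 and 6) and Laptm5 (5 and 2) the lower. After DCA, 2 were higher and 21 lower (56.8%), against 4.14% and 43.9%. Laptm5 (9 and 0), Irf8 (8 and 1) and Csf1r (5 and 0) led the lower, and Ptprc (2 and 6) and Il1b (1 and 3) were higher, with Arg1 at 0 and 1. At equal list sizes 4 were higher and 11 lower after DCA, against 12.1% and 24.1% of genes. Laptm5 then had 5 and 0, Csf1r 4 and 0, and Irf8 1 in each list. For SNA at equal sizes 6 were higher and 11 lower, against 13.9% and 21.1%. Lam against Sham had 13 higher and 10 lower, against 30.8% and 9.56%, led by Fcgr3 (7 and 0), Tlr2 (7 and 2) and Cd163 (7 and 3), with Ptprc (2 and 9), Arg1 (0 and 3) and Il1b (1 and 4) lowest.

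The same counts were made for a list of 50 other myeloid genes, among them Itgam, Cx3cr1 and Mertk. ATAC stood at an end of 34, 35, 35 and 37 of them, H3K9ac at 16, 21, 21 and 24, H3K27ac at 23, 21, 22 and 20 and H3K27me3 at 24, 18, 22 and 9. After SNA 15 of the 50 held at least 2 more H3K9ac peaks and 1 at least 2 fewer (background 23.6% and 2.68% of genes), and after DCA 17 and 1 (33.2% and 2.44%). For H3K27ac the counts were 13 and 3 after SNA (29.2% and 4.14%) and 2 and 11 after DCA (3.33% and 22.0%). For ATAC they were 18 and 5 after SNA (31.2% and 11.8%) and 16 and 11 after DCA (20.3% and 20.6%). Mertk, a receptor for dying cells singled out after its values were seen, held 14 more H3K9ac peaks after SNA and 21 more after DCA. Its differences after SNA and DCA were 20 and -9 for H3K27ac and 4 and -2 for ATAC. Mertk was not counted at equal list sizes. Among 10 neutrophil genes ATAC stood at an end of 4 to 7, and H3K27ac of 0 in each list. Of 9 T cell genes 5 to 8 had ATAC at an end, and of 10 endothelial genes 7 or 8. H3K27me3 was at an end of 8, 7, 7 and 4 of the T cell genes. For the neutrophil genes it was 7, 6, 6 and 4, and for the endothelial genes 4, 1, 5 and 1.

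The labelled tissue was checked with neuronal and glial markers. ATAC stood at an end of 14 or 15 of 15 sensory neuron genes and 11 or 12 of 15 genes of satellite glia and Schwann cells. H3K9ac was at an end of 1 to 4 sensory neuron genes and H3K27ac of 2 or 3, and at 10 to 14 and 10 to 14 glial genes. Of the 32 macrophage markers among the members, 18 to 22 had ATAC at an end, 5 to 10 H3K9ac and 3 to 7 H3K27ac. Like the macrophage markers, few sensory neuron genes had acetylation at their ends. H3K27me3 was at an end of 11, 11, 12 and 6 sensory neuron genes and 3, 4, 7 and 0 glial genes. For the macrophage markers it was 19, 12, 20 and 10.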

How the data were processed

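Ganglia were profiled in 60 samples (24 ChIP, 24 input and 12 ATAC libraries), and the peak lists, 1 for each assay and surgery, were analysed. Per the labels, the authors pooled the replicates of a condition (2 per ChIP group, 3 per ATAC group) before each list was made, which is why the groups have no replicate error. Per the submitters' processing notes the genome build was mm10; the aligner, peak caller and filters are not given in the sources used here. Each deposited list gives, by the authors, a peak score, a fold enrichment over background as a ratio, −log10 p and −log10 q, and the summit position. Intervals that the ATAC lists repeat, with more than 1 summit, were collapsed to 1 peak.

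The 37 members and all gene lists were chosen with earlier results of these data known. Windows, the gene body with 10 kb on either side, came from RefSeq genes of GRCm38.p6, and a peak counted with an overlap of 1 bp. The median window was 30.8 kb for the members and 37.2 kb for all genes, and counts were not adjusted for window length. No exon annotation or genome sequence was used, so peaks are placed as inside a gene, at a gene end (within 1 kb) or in the flank. Start sites and promoter sequences came from the RefSeq promoter table. Peak strength is given as the percentile of a peak in its own list by −log10 p, and a region joins overlapping peaks of the 4 lists of an assay. Calls were a difference of at least 2 peaks. Named for each assay and comparison were the 3 members with the largest differences in each direction, ties in alphabetical order, and those with a gene-end peak in every list or none. Single regions were named outside this rule. Ratios of peak numbers carry exact binomial 95% intervals. Trac was not found in the gene table, so 9 of 10 T cell genes were used. Counting was checked on simulated data. Python 3.11.15, pandas 2.3.3, numpy 2.4.6, scipy 1.17.1 and matplotlib 3.10.9 were used.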

Additional observations from a re-analysis of the deposited data

Results flagged for a closer look

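Some members held at least 2 more peaks after SNA than in Sham and at least 2 fewer after DCA than in Lam, or the reverse. These differences between the injuries were not tested, since each rests on 1 pooled list per surgery.

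In H3K27ac, Spi1 differed by 6 after SNA and -3 after DCA, Csf1 by 2 and -3, and Spp1 by 2 and -2. With each pair of lists at equal size the differences were 3 and 0 for Spi1, 1 and 1 for Csf1 and 2 and -1 for Spp1, so none was called in opposite directions. The whole H3K27ac lists moved the same way, longer after SNA and shorter after DCA, and 14.4% of all genes were called in opposite directions. In ATAC, Gpnmb differed by 4 and -2, whereas Fcer1g differed by -2 and 2 and Tnf by -3 and 2. Over all genes 12.4% were called in opposite directions for ATAC.

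In H3K27me3, C1qa differed by 2 and -3, C1qb by 2 and -4, Tyrobp by 2 and -4, Gpnmb by 2 and -4, H2-Ab1 by 3 and -4 and Cd163 by 2 and -2. The windows of C1qa and C1qb share peaks. These 6 members are 16.2%, against 10.95% of genes, and no peak behind them in the SNA or DCA lists had a q of at most 0.05. Calls in the same direction were also above the share of genes, with 7 members (18.9%, against 13.3%). At equal list sizes C1qa differed by 2 and 0, C1qb by 1 and 0 and Gpnmb by 1 and -1. Tyrobp (2 and -4), H2-Ab1 (3 and -2) and Cd163 (2 and -2) were still called in opposite directions. Ptprc (-4 and 5) and Adgre1 (-3 and 2) were then called so as well. The share of genes at equal sizes was not determined.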

How the results depend on the processing

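Of 101 alternative values of the 12 log2 ratios of members' peaks, 89 stayed in the counting interval and 89 kept their direction. With each pair of lists at equal size, H3K9ac reversed to -0.16 after SNA and -0.072 after DCA, each against its control, H3K27ac changed sign to -0.04 and 0.22, and H3K27me3 after DCA was -0.39. ATAC after SNA was then 0.17, with an interval of -0.16 to 0.51. With peaks of −log10 q of at least 5, H3K9ac gave 1.32 after SNA, 2.81 after DCA and 1.32 between the controls (Lam to Sham). Each 1.32 rests on 5 against 2 peaks, with an interval of -1.29 to 4.71, and 2.81 on 35 against 5. ATAC gave 0.89 (39 against 21 peaks), -0.32 (24 against 30) and 0.51 (30 against 21) in the same order. Ratios of the whole lists at that limit were not determined. H3K27ac after DCA gave -1.10. With the gene body alone, H3K27ac after DCA was -1.0 and H3K27me3 after SNA was -0.52. The cause of these shifts was not tested. H3K27me3 ratios at −log10 q of at least 5 were not run, nor at q of at most 0.05 after either injury, because lists held 0 such member peaks. The alternatives of a swapped control list, of peaks away from neighbours' ends, of peaks over ATAC and of other gene-end distances or limits were chosen after seeing the data. No paired analysis was possible because the deposited lists pool the replicates, and for the same reason no replicate could be left out. Depth, which limits how many weak peaks a list holds, is unknown.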
